A study of Mus musculus with 3 samples.

Results

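Very long genes are the protein-coding genes whose body plus 2 kb upstream spans more than 500 kb. The GENCODE vM21 annotation of the mouse genome build mm10 gave 219 such genes among 20702 protein-coding genes analysed on chromosomes 1 to 19. They were chosen on length alone. Their median span was 733 kb, 55 of them were longer than 1 Mb, and 118 lay on the plus strand. Their bodies covered 7.55% of the autosomes.

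Chromatin accessibility was measured by single-nucleus ATAC-seq, in which the enzyme Tn5 inserts adapters into open DNA and each nucleus is read under its own barcode. Each of the 3 libraries was a stage of its own, named by the day after conception as E12.5, E13.5 and E15.5. All embryos were wild type (WT) and of strain C57BL/6JRj, the tissue came from frozen sections, and the sex was not determined. Stage and library therefore cannot be told apart. The deposited clusters 2 and 4 were not used in the comparisons, and the other clusters held 83, 809 and 558 nuclei in the E12.5, E13.5 and E15.5 libraries. Values of a cluster are listed in this order of stage, and in clusters 6 and 10 the first value is that of E13.5.

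Many very long genes encode proteins of the synapse and of the growing axon. A contactin or a teneurin gene carries short exons spread over introns of great length, so that RNA polymerase needs many hours to read it once. Several of them coincide with common fragile sites, regions where replication is easily left unfinished. In neurons such genes are among the main active genes of the differentiated cell, and in red blood cell precursors most of them are silent.

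Nuclei of each cluster and library were added up. A sum with at least 10 nuclei entered the comparisons if its cluster reached this in more than 1 library. Cluster 11 reached it only at E13.5, with 35 nuclei, and was left out. This left 23 sums in 9 clusters. Marker genes were checked by their fragments in each cluster against all others. Cluster 0 carried 7 of 7 counted neuron markers at 1.5-fold or more and cluster 6 carried 5 of 7, beside 4 of 8 progenitor markers. Cluster 9 carried 8 of 8 markers of neural progenitors, cluster 1 carried 7 of 7 of mesenchyme, cluster 5 carried 8 of 8 of erythroid cells and cluster 10 carried 9 of 9 of muscle. These are called neuron-like, progenitor-like, mesenchyme-like, erythroid-like and muscle-like. Clusters 7 and 8 carried markers of several types, cluster 3 reached 1.5-fold for no more than 2 markers of any type, and these 3 were left unnamed. The authors made the clusters from the same nuclei, so the tests describe these clusters and are no independent evidence of cell type. Barcodes of 3, 20 and 14 nuclei in the 3 libraries shared fragments with another barcode of the same library, and 1 barcode sequence occurred in 2 libraries.

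The level of a gene was given as unique fragments per kb for each 1000000 fragments on the autosomes. On this scale the mean over the autosomes was 0.406. The body was counted from 2 kb inside the 5′ end to the 3′ end. The promoter was counted from 1000 bases before to 100 bases after the 5′ end, so that this promoter did not enter the body. Of the very long genes 189 have 2 or more annotated starts, and promoters at inner starts remained in the body.

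The bodies of the very long genes were less accessible than the genome as a whole in every one of the 23 sums. Among these sums the highest levels were those of neuron-like clusters. Summed over the 219 genes, the body level was 0.358, 0.349 and 0.359 in cluster 0, and 0.332 and 0.342 in cluster 6. It was 0.304 to 0.329 in progenitor-like cluster 9, 0.282 to 0.284 in mesenchyme-like cluster 1, 0.274 to 0.278 in muscle-like cluster 10 and 0.236 to 0.262 in erythroid-like cluster 5. Cluster 0 lay above all sums of the other clusters, cluster 6 overlapped with unnamed cluster 3 (0.321 to 0.334), and cluster 5 overlapped only with clusters 7 and 8. Within a library, the mean of the neuron-like sums was 1.23 ± 0.0392 times that of the other sums (SD, n = 3 libraries) and took values of 1.19, 1.23 and 1.27. At E12.5 cluster 0 alone stood for the neuron-like side. With 3 libraries no exact test of this ratio against 1 can reach a p of 0.05.

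Accessibility far from any gene was also higher in cluster 0 than in clusters 1 and 5. It was read over 333 Mb of gene deserts, at least 50 kb from every annotated gene. The level was 0.214 to 0.259 in cluster 0, 0.19 to 0.196 in cluster 1 and 0.138 to 0.189 in cluster 5. In cluster 3 it was 0.235 to 0.257, although the bodies there lay below those of cluster 0. Divided by the desert level of the same sum, the body level of the very long genes was 1.38 to 1.68 in cluster 0 and 1.38 to 1.75 in cluster 5, so that the ranges overlapped. On that scale the neuron-like sums were 1.02 ± 0.0231 times the others (SD, n = 3 libraries). Bodies of the other genes ran from 0.464 to 0.525 over the 23 sums and were not highest in neuron-like clusters. The share of all fragments that fell in promoters also differed, from 6.11 to 7.57% in cluster 3 and 7.91 to 12% in cluster 0 to 12.9 to 15.3% in cluster 1 and 11.7 to 19.9% in cluster 5. The part of these shares in the body levels was not tested.

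**Figure D1:**
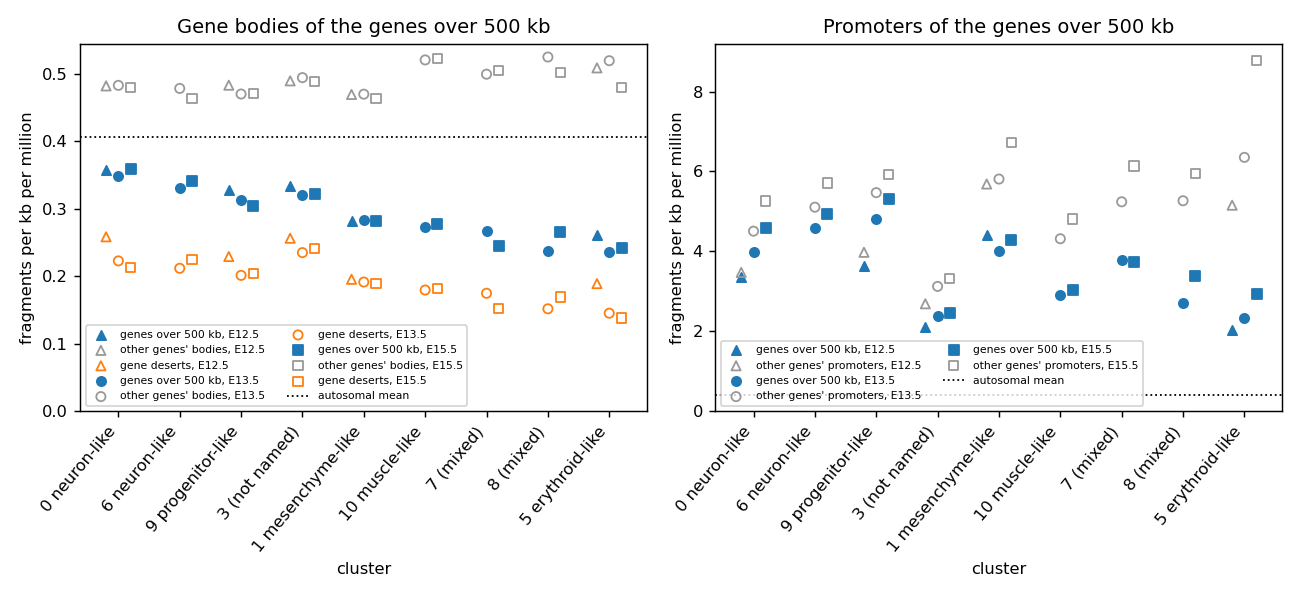
Levels of the very long genes (blue) in each cluster and library, in fragments per kb for each 1000000 fragments, for bodies on the left and promoters on the right, beside other genes (grey) and gene deserts (orange); the dotted line is the autosomal mean of 0.406. Body levels are 0.349 to 0.359 in cluster 0 and 0.236 to 0.262 in cluster 5. Desert levels are 0.214 to 0.259 in cluster 0, 0.138 to 0.189 in cluster 5 and 0.235 to 0.257 in cluster 3.

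Gene by gene, 150 of the 219 bodies were higher in the neuron-like clusters 0 and 6 than in the mean of the other clusters, and 1 was lower. This used edgeR's quasi-likelihood test on the sums, with library as a block and an adjusted p of 0.05 over all 15336 genes tested. Of all genes tested, 7.56% were higher and 3.94% lower. The median log2 fold change was 0.49 over the very long genes and -0.05 over all genes, and 206 of the 219 had a value above 0. A setting added after seeing the data took fragments in gene deserts as the library size in place of edgeR's TMM factors. It gave 37 bodies higher and 15 lower, with medians of 0.13 over the very long genes and -0.41 over all. The median of the very long genes thus stayed above that of all genes, as with TMM factors. The shares of 7.56% and 3.94% do not apply to these counts, and the shares at this setting are not given here. With TMM factors, the count of higher bodies was 45 without E13.5 and 62 without E15.5, with medians of 0.49 in both cases. With the 5 clusters present in all 3 libraries it was 55. The libraries are the only replicates and each is a stage, so the p-values measure the spread between these sums.

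The difference grew with gene length. In the neuron-like comparison the median body log2 fold change was -0.10 for genes up to 10 kb, -0.11 for 10 to 50 kb, -0.01 for 50 to 100 kb, 0.11 for 100 to 300 kb, 0.36 for 300 to 500 kb and 0.49 above 500 kb. In the erythroid-like comparison the same classes had medians of -0.08, 0.06, 0.00, -0.18, -0.38 and -0.44. Above 100 kb the medians thus had opposite signs, while up to 10 kb both were negative. Each comparison holds the clusters of the other among its controls, so opposite signs are partly built in. Genes next to the bound of 500 kb had mixed values on both sides. Just inside it, Pde1c (501 kb), a phosphodiesterase, had a body log2 fold change of 0.27 and Edil3 (504 kb), an extracellular adhesion protein, of 0.53. Just outside it, Dnm3 (498 kb), a dynamin, had -0.42 and Cacna1e (496 kb), a calcium channel subunit, 0.65. Longer genes also hold more fragments, which can make a call easier to reach, and the part of this was not tested. The medians do not depend on calls.

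**Figure D2:**
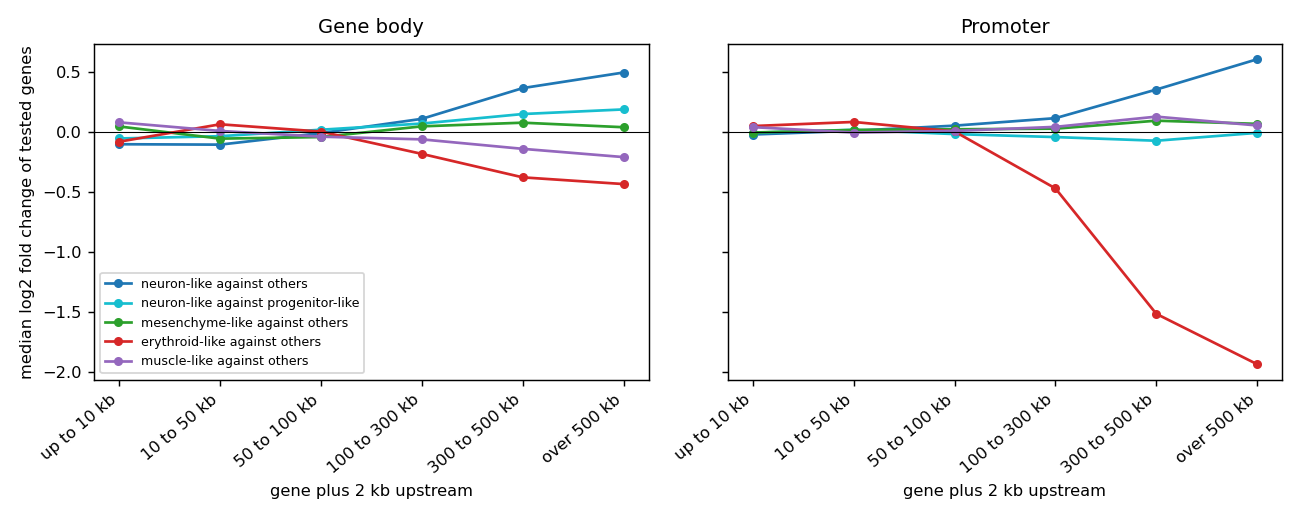
Median log2 fold change of the tested genes in 6 classes of length, for bodies (left) and promoters (right), with 1 line per comparison. The neuron-like line rises to 0.49 for bodies and 0.61 for promoters above 500 kb, and the erythroid-like line falls to -0.44 and -1.94.

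Genes of synaptic adhesion come first. Dscam, an adhesion molecule by which neurites of the same cell tell themselves from others, had body levels of 0.66, 0.581 and 0.625 in cluster 0 and of 0.62 and 0.598 in cluster 6. The other 18 sums ran from 0.206 through a median of 0.35 to 0.487. The neuron-like sums therefore lay above all others, and the log2 fold change was 1.07 ± 0.12 (SE, edgeR adjusted p = 9.38e-10). Such a lack of overlap was found for 8 of the 219 bodies, against 0.241% of all genes tested, and none lay below without overlap, against 0.0782%.

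Adgrb3, an adhesion receptor of the synapse that binds complement-like ligands, had body levels of 0.287, 0.294 and 0.308 in cluster 0 and of 0.285 and 0.354 in cluster 6. The other sums ran from 0.0688 through 0.152 to 0.303, and 2 of the 18 reached into the neuron-like range. Its log2 fold change of 1.10 ± 0.13 (SE, edgeR adjusted p = 6.91e-09) was the largest among the bodies.

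All 26 genes of the synaptic adhesion list had a higher body, with a median log2 fold change of 0.57. Among them were the 2 longest, Ptprd (2273 kb), a receptor phosphatase that organises synapses, at 0.47, and Cntnap2, an adhesion protein of the axon, at 0.51. In the same list 10 of 12 tested promoters were higher, against 13.2% of all promoters tested. The cadherins and catenins, which join cells through calcium-dependent contacts and link them to actin, had 8 of 8 bodies higher, with Ctnna3 at 0.55 and Pcdh15 at 0.59. The Cub and sushi domain and lipoprotein receptors had 4 of 4 bodies higher, among them Lrp1b at 0.56 and Csmd1 at 0.62.

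Among the genes of axon guidance 6 of 7 bodies were higher. Dcc, the netrin receptor, had a log2 fold change of 0.89, and Epha6, an ephrin receptor, of 0.57. The list's exception was Slit3, a secreted ligand of the Robo receptors, at 0.30 with an edgeR adjusted p of 0.12. All 10 genes of the neurotransmitter receptor list had a higher body. Nrg3, a neuregulin ligand placed in that list, was at 0.98. Ion channels and their subunits had 10 of 13 bodies higher, with Kcnip4 at 0.68 and Dpp6 at 0.86, both auxiliary subunits of Kv4 potassium channels.

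Inside the cell, 23 of 32 bodies of scaffold and kinase genes were higher. Dlg2, a scaffold of the postsynaptic density, was at 0.62, and Pde4d, a cyclic AMP phosphodiesterase used in many tissues, was at 0.21 with an edgeR adjusted p of 0.29. Dab1, the adaptor that carries the reelin signal in migrating neurons, had body levels of 0.606, 0.355 and 0.44 in cluster 0 and 0.429 and 0.506 in cluster 6. The other sums ran from 0.0824 through 0.253 to 0.42, and 3 of 18 overlapped, all from cluster 9.

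Transcription factors and RNA-binding proteins had 7 of 15 bodies higher. Rbfox1, a neuronal splicing factor, was at 0.96 and Auts2 at 0.74. Bodies of the extracellular matrix list were higher in 6 of 11 cases, among them Gpc5 at 0.47 and Galntl6 at 0.51. The sarcoglycan and muscle list had 4 of 10 higher, and its Prkg1, a cyclic GMP kinase of smooth muscle, was at 0.19 with an edgeR adjusted p of 0.43. Of 25 common fragile site genes 20 had a higher body, including Lsamp, a surface protein of limbic neurons, at 0.55. These lists overlap, and no difference between lists was tested. The 81 very long genes in no list had 43 bodies higher, 1 lower and a median of 0.43.

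Shorter relatives of the adhesion and receptor families gave a comparison within protein families. Of 63 such genes tested, 20 bodies were higher and 4 lower, with a median log2 fold change of 0.39. Their promoters were higher for 20 and lower for 4 of 39, against 13.2% and 11.5% of all promoters tested, with a median of 0.37. The 2 longest of them were Dscaml1 and Cntn1. The medians of the long members of synaptic adhesion, 0.57 for bodies and 1.08 for promoters, were larger, and the difference was not tested.

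Rad51b was the 1 very long gene with a lower body in the neuron-like clusters. It serves DNA repair in dividing cells. Its body level was 0.335, 0.363 and 0.319 in cluster 0 and 0.433 and 0.499 in cluster 6, against 0.402, 0.713 and 0.999 as lowest, median and highest of the other 18 sums. It thus stood at less than the usual level of the other clusters in all 3 libraries, with a log2 fold change of -0.71 ± 0.13 (SE, edgeR adjusted p = 5.67e-05).

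**Figure D3:**
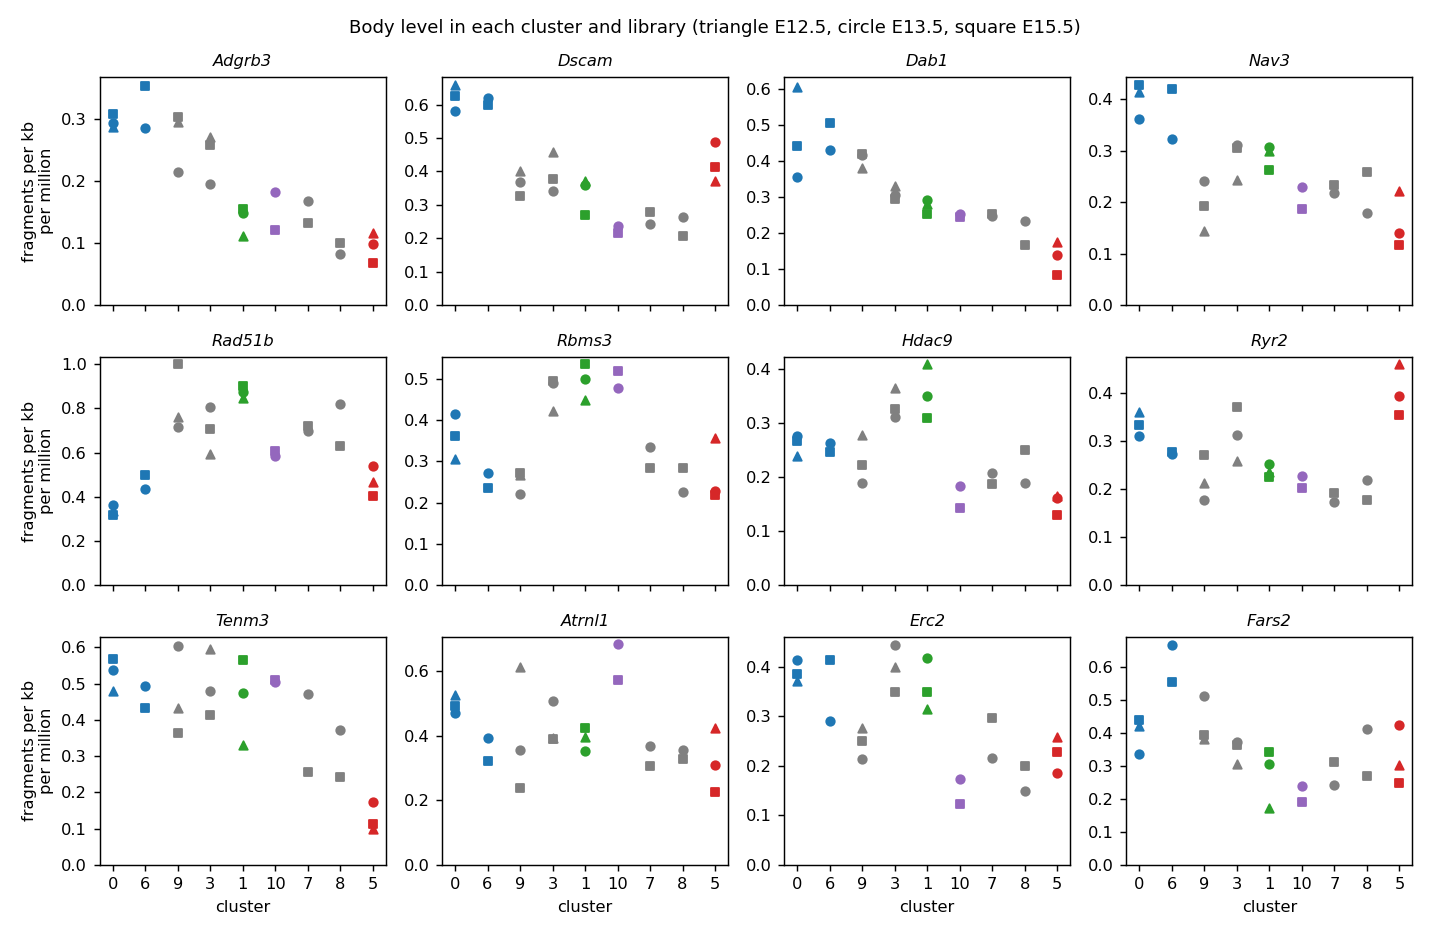
Body level, in fragments per kb for each 1000000 fragments, of 12 genes named by the largest change in a comparison, with 1 point per cluster and library. Neuron-like clusters are blue, mesenchyme-like green, muscle-like purple, erythroid-like red and the rest grey; Dscam stands at 0.581 to 0.66 in blue against at most 0.487 elsewhere, and Rad51b is lowest in cluster 0, at 0.319 to 0.363.

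The higher level was spread along the gene. In 25 kb steps over the first 477 kb, the neuron-like mean was between 0.313 and 0.353 and the erythroid-like mean between 0.203 and 0.261, and both ended close to where they began. The ratio of neuron-like to other sums stayed between 1.20 and 1.34 over the 19 steps. When each gene was cut into pieces of 50 kb, the neuron-like mean was higher in 3039 of 3669 pieces, and in every piece of 74 genes. In 5 genes no piece was higher, and Rad51b was 1 of them.

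The difference was also present outside the most open bins. The 10% of 1 kb bins with most fragments were chosen on all E13.5 sums added up. They held 24.4 to 28.6% of body fragments in cluster 0, 31.1 to 34.9% in cluster 6 and 26.6 to 36.6% in cluster 5. Outside these bins the neuron-like sums were 1.25, 1.29 and 1.34 times the others in the 3 libraries, and inside them 1.03, 1.12 and 1.12 times. Neuron-like sums were only a part of those that chose the bins, and the part of this choice in the ratios was not tested. After every sum was thinned to 22671 fragments, 10% of the body fragments lay in 0.459 to 0.476% of the 1 kb bins in cluster 0, in 0.319 to 0.344% in cluster 6 and in 0.122 to 0.282% in cluster 5. Cluster 3 was the most even, at 0.504 to 0.509%.

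**Figure D4:**
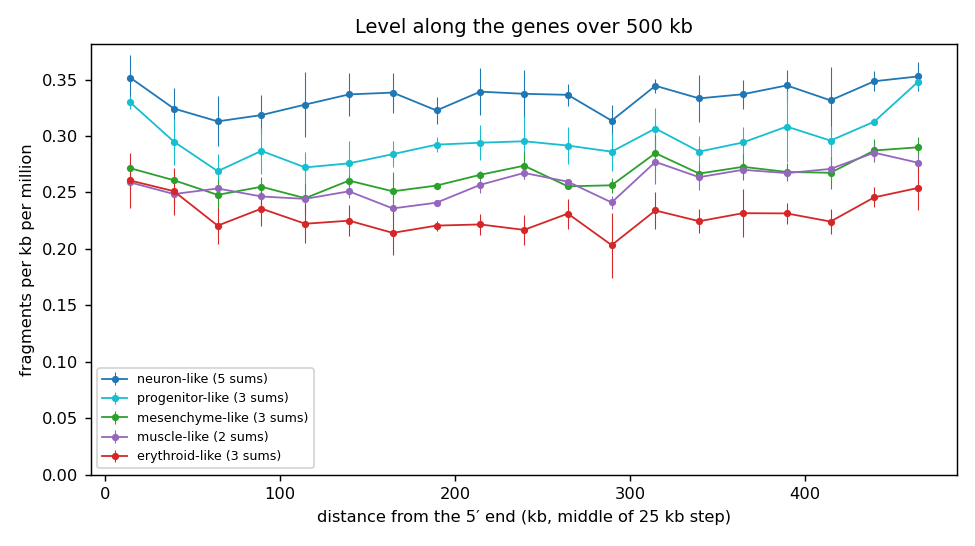
Mean level over the 219 genes by distance from the 5′ end, in 25 kb steps, with SD over the sums of a cluster type as bars. The neuron-like line stays between 0.313 and 0.353 and the erythroid-like line between 0.203 and 0.261 along the whole stretch.

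Single open windows within introns nevertheless differed between clusters. For each of 4 cluster types, the 100 windows of 1 kb with the highest ratio to the other clusters at E13.5 were taken from introns, away from exons and annotated starts, and their levels were read in the other libraries. At E15.5, which did not choose them, the neuron-like windows had a mean level of 3.43 against 0.59 in the other clusters, and all 100 were higher. The mesenchyme-like windows had 2.81 against 0.681, the muscle-like 4.65 against 0.576 and the erythroid-like 14.4 against 0.745, with 93, 92 and 96 of 100 higher. At E12.5 the neuron-like windows had 1.38 against 0.613, with 57 of 100 higher, in a library of 11 nuclei in that cluster. The windows of a set are not all separate or all typical. The neuron-like set holds the same stretch at ranks 10, 11 and 20, under the gene models Gm37013, Gm37388 and Gm42416. Gm20388, a model that holds the starts of 72 other genes, has erythroid-like ranks 1, 4, 11, 13 and others, and muscle-like rank 1. Levels without such windows were not read.

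The sequences of these windows, 200 bases around the middle of the fragments, carried motifs in different shares. Motifs were searched on both strands, and the share is set beside that in 171998 windows of the same length at the centres of the intronic 1 kb bins of the very long genes. CATCTG, an E-box of proneural factors, was found in 45% of the neuron-like windows and 14.7% of all. It was also in 31% of the muscle-like, 26% of the mesenchyme-like and 19% of the erythroid-like windows. CAGCTG, the E-box of myogenic factors, was in 65% of the muscle-like and 29% of the neuron-like windows. It was in 19% of the erythroid-like windows, 14% of the mesenchyme-like windows and 6.43% of all. GATAAG, the core bound by GATA factors, was in 58% of the erythroid-like windows and 7.83% of all, and the overlapping AGATAA in 58% and 14.8%. TAATTA, a homeodomain site, was in 22% of the neuron-like windows and 8.62% of all. The AP-1 site TGACTCA was in 3 to 6% of each set and 3.12% of all. The windows were also richer in G and C, with medians of 46.5 to 50% against 40%, and the part of this in the shares was not tested. The shares include the Gm20388 windows and the repeated stretch, and shares without them were not computed.

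Windows in Gm20388, which has no RefSeq entry of that symbol, are not shown, though they ranked first in the erythroid-like and muscle-like sets. For each type 2 of its 3 highest-ranked windows are shown to let the motifs be read in place. They are given on the plus strand of GRCm38 (mm10), with every match to the 6 motifs in capitals. In the neuron-like set they lie in introns of Cntnap2 at chr6:47228748-47228947 and of Asic2, an acid-sensing channel, at chr11:81579796-81579995.
Cntnap2: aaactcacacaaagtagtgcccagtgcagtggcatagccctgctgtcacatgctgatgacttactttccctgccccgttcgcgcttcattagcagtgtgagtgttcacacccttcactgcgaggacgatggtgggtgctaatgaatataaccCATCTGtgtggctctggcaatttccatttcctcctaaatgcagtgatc
Asic2: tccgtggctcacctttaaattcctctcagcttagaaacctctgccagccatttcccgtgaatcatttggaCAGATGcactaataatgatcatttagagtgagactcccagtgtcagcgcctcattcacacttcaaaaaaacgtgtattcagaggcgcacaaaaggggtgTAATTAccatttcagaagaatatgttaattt
At E15.5 the Cntnap2 window had a level of 4.43 in the neuron-like clusters against 0.929 elsewhere, and the Asic2 window 2.25 against 0.713. At E12.5 the Asic2 window had 0 against 1.05.

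The erythroid-like windows lie in Vps13b, a lipid transfer protein of the Golgi, at chr15:35475569-35475768 and in Elmo1, a partner of the Dock proteins, at chr13:20150192-20150391.
Vps13b: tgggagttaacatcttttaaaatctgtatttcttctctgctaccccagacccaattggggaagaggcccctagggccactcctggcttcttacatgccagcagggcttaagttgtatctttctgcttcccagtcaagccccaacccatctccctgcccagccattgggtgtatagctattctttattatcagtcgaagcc
Elmo1: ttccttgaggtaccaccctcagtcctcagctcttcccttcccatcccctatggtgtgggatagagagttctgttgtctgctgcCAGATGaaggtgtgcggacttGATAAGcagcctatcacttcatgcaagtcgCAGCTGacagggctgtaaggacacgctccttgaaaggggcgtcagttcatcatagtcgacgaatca
At E15.5 they had levels of 32.2 and 28.2 in cluster 5 against 0.197 and 0.828 elsewhere. The Vps13b window held none of the 6 words.

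The muscle-like windows lie in Tenm4, a teneurin, at chr7:96301856-96302055 and in Atrnl1, an attractin-like protein, at chr19:58017143-58017342. Each holds CAGCTG.
Tenm4: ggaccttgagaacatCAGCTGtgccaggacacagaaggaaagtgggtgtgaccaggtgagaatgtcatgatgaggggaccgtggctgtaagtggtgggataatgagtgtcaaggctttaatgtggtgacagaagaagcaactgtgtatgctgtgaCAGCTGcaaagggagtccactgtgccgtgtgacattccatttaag
Atrnl1: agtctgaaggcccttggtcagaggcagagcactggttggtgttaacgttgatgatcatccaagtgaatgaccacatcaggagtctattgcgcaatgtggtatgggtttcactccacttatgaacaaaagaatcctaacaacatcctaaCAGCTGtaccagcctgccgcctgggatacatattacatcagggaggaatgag
At E15.5 they had levels of 13 and 10.5 in cluster 10 against 0.393 and 0.878 elsewhere. The mesenchyme-like windows lie in Nell1, a secreted factor of bone formation, at chr7:50205205-50205404 and in Ryr3, a calcium release channel, at chr2:112983066-112983265.
Nell1: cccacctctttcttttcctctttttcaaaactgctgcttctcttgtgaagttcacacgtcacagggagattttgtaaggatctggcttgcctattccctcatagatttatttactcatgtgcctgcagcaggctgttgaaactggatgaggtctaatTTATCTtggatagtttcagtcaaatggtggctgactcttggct
Ryr3: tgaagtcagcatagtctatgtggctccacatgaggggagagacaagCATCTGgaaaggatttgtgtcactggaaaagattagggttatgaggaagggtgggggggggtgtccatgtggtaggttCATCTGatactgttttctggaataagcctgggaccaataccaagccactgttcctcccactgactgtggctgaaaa
At E15.5 they had levels of 7.91 and 2.14 in cluster 1 against 1.18 and 0.341 elsewhere. At E12.5, with 10 nuclei in cluster 1, the Ryr3 window had 0 against 0.359.

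Promoters were compared apart from the bodies. Counted at the outer 5′ end of each GENCODE model, the promoters of the very long genes were less accessible than those of other genes in every cluster. Summed levels were 3.37 to 4.58 in cluster 0 against 3.47 to 5.26, and 2.04 to 2.95 in cluster 5 against 5.16 to 8.77. For some genes this end lies far from the RefSeq start, by 748179 bases for Dab1, while for others, as Dpp10, the starts coincide. The part of such outer starts in these levels was not tested. Only 115 of the 219 promoters passed the filter of a mean of 10 fragments over the sums, and the other 104 were too shallow to test. A promoter open in 1 type alone can pass through that type, so the counts below describe the tested promoters only. In the neuron-like clusters 60 of the 115 were higher and 4 lower, against 13.2% and 11.5% of all 11308 promoters tested. Without E13.5 the count of higher promoters was 26 and without E15.5 it was 38. The median log2 fold change was 0.61 over the very long genes and 0.02 over all.

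The neuron-like promoter list was led by Ctnna2, the neuronal alpha-catenin. Its promoter level was 9.96, 9.29 and 13.52 in cluster 0 and 15.4 and 18.5 in cluster 6. The other sums ran from 0 through 2.57 to 13.1, and 2 of the 18 reached into that range, and the log2 fold change was 2.41 ± 0.19 (SE, edgeR adjusted p = 5.01e-20). For Dpp10, an auxiliary subunit of Kv4 channels, the 5 neuron-like sums lay between 3.77 and 5.28 and the others between 0 and 3.54, without overlap and with a log2 fold change of 2.26. Fam155a, a subunit of the NALCN sodium leak channel, stood between 3.87 and 9.19 against at most 3.64, with a log2 fold change of 2.33. Non-overlap was found for 4 of the 115 promoters, against 0.318% of all promoters tested, and none lay below, against 0.124%. Dpp10 and Fam155a, among these 4, had 96 and 122 fragments in the 18 other sums, under the filter's mean of 10. They passed through the neuron-like sums, so the count of 4 is a description only. Anks1b, a scaffold of the postsynaptic density, had 9.19, 11.9 and 11.3 in cluster 0 and 8.7 and 19.7 in cluster 6, against a median of 2.45 in the others, and 2 of the others overlapped.

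The 250 bases upstream of the RefSeq start are shown for Dpp10 (chr1:124045560-124045809, minus strand) and Anks1b (chr10:89873259-89873508, plus strand), the neuron-like leaders whose RefSeq and GENCODE starts coincide, and for Immp2l (chr12:41023840-41024089, plus strand), a mitochondrial peptidase gene with an erythroid-like promoter. Sequences are from RefSeq on GRCm38.p6, 5′ to 3′ along the gene, with CG dinucleotides in capitals.
Dpp10: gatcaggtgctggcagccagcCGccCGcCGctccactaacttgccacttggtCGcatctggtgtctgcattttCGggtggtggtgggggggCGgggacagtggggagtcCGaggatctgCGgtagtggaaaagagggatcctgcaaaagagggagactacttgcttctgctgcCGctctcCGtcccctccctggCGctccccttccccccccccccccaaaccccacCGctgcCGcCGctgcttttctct
Anks1b: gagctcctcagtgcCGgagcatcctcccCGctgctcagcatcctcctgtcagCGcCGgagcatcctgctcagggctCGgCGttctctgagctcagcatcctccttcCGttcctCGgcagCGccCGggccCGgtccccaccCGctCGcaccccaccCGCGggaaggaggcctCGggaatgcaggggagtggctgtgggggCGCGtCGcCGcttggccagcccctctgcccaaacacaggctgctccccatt
Immp2l: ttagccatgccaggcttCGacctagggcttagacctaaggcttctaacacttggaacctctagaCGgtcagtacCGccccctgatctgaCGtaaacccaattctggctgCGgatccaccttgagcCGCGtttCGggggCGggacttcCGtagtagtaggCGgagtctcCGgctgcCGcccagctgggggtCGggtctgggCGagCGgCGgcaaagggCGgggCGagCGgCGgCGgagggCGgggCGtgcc
They hold 14, 20 and 24 CG dinucleotides. Over the 167 very long genes in that table the median was 12, and over all 32851 promoters of the table it was 6. The table holds more promoters than the 21951 annotated protein-coding genes, so the sets differ in kind. In the promoter windows of the protein-coding genes, the median ratio of observed to expected CG was 0.49 for the very long genes. It was 0.53 for genes of 100 to 500 kb and 0.42 for all other genes.

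The promoters lower in the neuron-like clusters were few. Dock1, an activator of the GTPase Rac, had levels of 0, 2.47 and 1.27 in cluster 0 and 2.64 and 1.79 in cluster 6, against a median of 4.68 in the others, with a log2 fold change of -1.15 ± 0.28 (SE, edgeR adjusted p = 0.000855). The other 3 were those of Fgfr2 at -0.86, of the predicted gene Gm37240 at -1.27 and of Cpq, a peptidase gene named after its value was seen. Fgfr2 and Gm37240 rest on gene models that run over other genes. The annotated Fgfr2 model spans 2963 kb and holds the starts of 29 other genes, while its RefSeq entry is 104 kb long. The Gm37240 model holds the starts of 7 others.

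Body and promoter moved together in part. Of the 115 genes with both tested in the neuron-like comparison, 47 were higher in both, 27 in the body alone, 13 at the promoter alone and none in opposite directions. Across these 115 genes, which share libraries and depth, Pearson's r of the log2 fold changes was 0.51 and Spearman's rho 0.52, given as a description. Dlg2 and Auts2, for example, had higher bodies but promoter values of -0.21 and 0.30 that did not pass the test. The Dlg2 promoter tested lies 614114 bases from the RefSeq start of that gene.

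**Figure D5:**
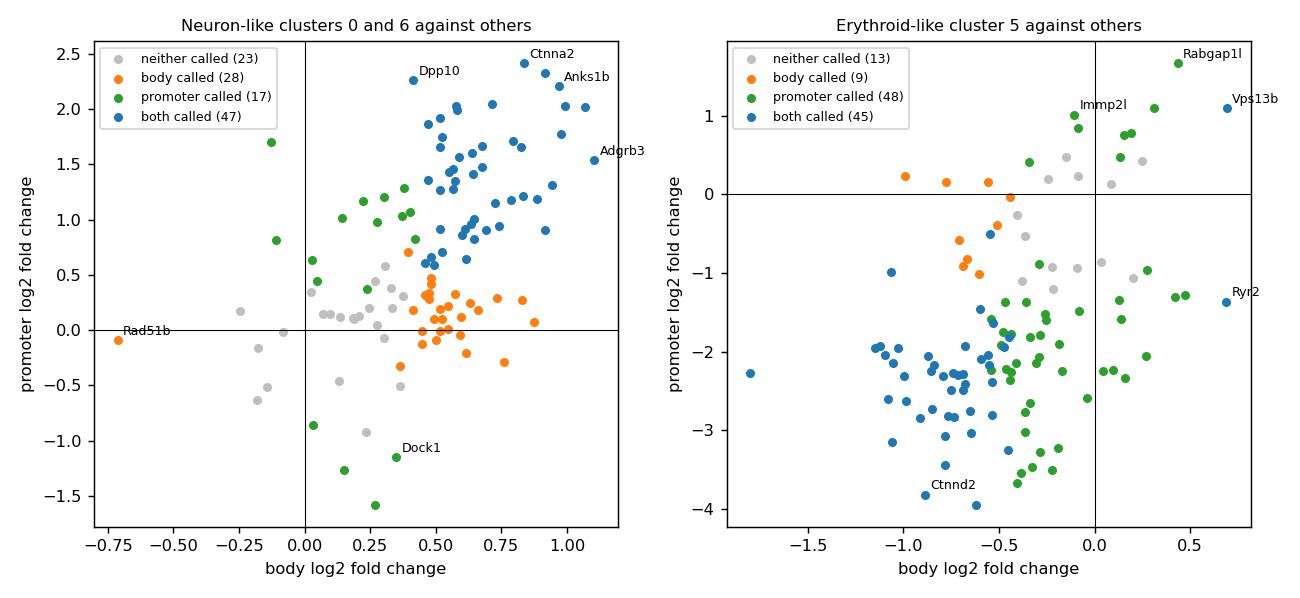
Log2 fold change of the body (x) and of the promoter (y) for the 115 very long genes with both tested, for neuron-like clusters (left) and erythroid-like cluster 5 (right), coloured by which of the values was called. On the left 47 genes were called in both, all upward; on the right 43 of 45 were downward in both, and Ryr2 is the gene with opposite signs.

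Erythroid-like cluster 5 was the counterpart, with sums of 10, 166 and 10 nuclei in the 3 libraries. Of the 219 bodies 91 were lower and 5 higher, against 8.35% and 9.77% of all genes, with 36 lower without E13.5 and 56 without E15.5, and the median log2 fold change was -0.44 against -0.01 over all. With gene-desert fragments as the library size 26 bodies were lower and 37 higher. The median was then -0.01 over the very long genes and 0.44 over all genes. Both medians thus rose, and that of the very long genes stayed below that of all genes, as with TMM factors. The shares over all genes at this setting are not given here, so its counts do not single out the very long genes. At promoters 84 of 115 were lower and 9 higher, against 25.8% and 21.1% of all, with 20 lower without E13.5, and the median was -1.94 against 0.01. The synaptic adhesion list had 13 of 26 bodies and 10 of 12 promoters lower, and the cadherins and catenins 7 of 8 bodies.

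Tenm3, a teneurin that matches partner neurons in visual circuits, had the largest fall, with body levels of 0.0997, 0.172 and 0.111 in cluster 5. The other 20 sums ran from 0.242 through 0.477 to 0.604, so the groups did not overlap, and the log2 fold change was -1.80 ± 0.21 (SE, edgeR adjusted p = 5.8e-10). Dlgap1, a postsynaptic scaffold, had 0.091, 0.129 and 0.109 against 0.234 to 0.496. Robo1, a receptor for Slit proteins, had 0.186, 0.126 and 0.123 against 0.234 to 0.573. Both were again below every other sum, with log2 fold changes of -1.66 and -1.42. Dab1 had 0.176, 0.139 and 0.0824 against 0.166 to 0.606, with 1 other sum inside that range.

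At promoters the fall went close to 0 fragments. Dpyd, the enzyme that starts pyrimidine breakdown, had 4 promoter fragments in the 3 erythroid-like sums and 320 in the other 20. Its levels were 0, 0.283 and 0 against 1.23 to 7.97, and the log2 fold change was -3.95 ± 0.67 (SE, edgeR adjusted p = 6.37e-07). Ctnnd2, a catenin of neuronal contacts, likewise had 4 fragments against 347. Fgf12, a partner of sodium channels, had 7 against 620. The counts are low enough that the size of these changes is known only roughly. The levels of 0 come from the E12.5 and E15.5 sums, of 10 nuclei each.

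Some very long genes were open in cluster 5. Immp2l had promoter levels of 24.9, 23.7 and 25.6 against 1.45 to 20.5, without overlap. The log2 fold change was 1.02 ± 0.19 (SE, edgeR adjusted p = 7.59e-06), while its body was at -0.11 with an edgeR adjusted p of 0.765. Rabgap1l, a regulator of Rab GTPases, had 2.93, 9 and 14.6 against a median of 2.3, and was higher by a log2 fold change of 1.67, although 4 of 20 others overlapped. Vps13b rose in both measures, by 0.69 for the body and 1.10 for the promoter. At its promoter 11 of 20 other sums overlapped. These 20 held 184 fragments, under the filter's mean of 10, so that promoter passed through cluster 5. Gm37240 was higher by 1.10 at the promoter.

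Ryr2, the calcium release channel of heart muscle, was the 1 very long gene called in opposite directions. Its body level in cluster 5 was 0.461, 0.394 and 0.354 against 0.174, 0.244 and 0.371 as lowest, median and highest of the others, with a log2 fold change of 0.69 ± 0.16 (SE, edgeR adjusted p = 0.0011). Its promoter level was 0, 1.42 and 0 against 0.727 to 5.17, and the promoter log2 fold change was -1.36 ± 0.52 (SE, edgeR adjusted p = 0.0253). Malrd1, a regulator of bile acid signalling, had an erythroid-like body level of 0.31, 0.145 and 0.266 and overlapped with 12 of 20 others.

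Few very long genes were called between the neuron-like clusters and the 3 sums of progenitor-like cluster 9. Of the 219 bodies 4 were higher and 2 lower against cluster 9, beside 0.254% and 0.945% of all genes. The median was 0.19 against -0.00 over all, and 165 of the 219 had a value above 0. Without E13.5 and without E15.5 none was higher, where 22 and 15 had an unadjusted p under 0.05 in edgeR, and DESeq2 called 9 on all libraries. Nav3, a navigator protein of microtubule ends, had 0.415, 0.361 and 0.427 in cluster 0 and 0.323 and 0.42 in cluster 6, against 0.144 to 0.24 in the 3 sums of cluster 9. These did not overlap, and the log2 fold change was 0.96 ± 0.21 (SE, edgeR adjusted p = 0.00732). Dpp6, Dscam and Anks1b were higher by 0.85, 0.76 and 0.74, and for Dpp6 1 of the 3 cluster 9 sums overlapped. Rad51b was lower by a log2 fold change of -1.09 and Zbtb20, a repressor of the developing hippocampus and glia, by -0.79, each without overlap.

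At promoters 1 of 115 was higher and 8 were lower than in cluster 9, against 0.822% and 3.71% of all, and 1 was lower without E13.5 and 1 without E15.5. Syt1, the calcium sensor of synaptic vesicle release, had 6.89, 7.69 and 9.87 in cluster 0 and 7.3 and 5.36 in cluster 6 against 1.88 to 4.36. The groups did not overlap and the log2 fold change was 1.80 ± 0.48 (SE, edgeR adjusted p = 0.0107). The Syt1 promoter held 251 fragments in the neuron-like sums and 17 in cluster 9, so it could pass the filter through the neuron-like sums. Adgrv1, a giant adhesion receptor, had the largest fall, from 6.54 to 15.8 in cluster 9 to at most 3.57 in the neuron-like sums, with a log2 fold change of -2.22. Nckap5, Dock1 and Grm8 were lower, with log2 fold changes of -1.78, -1.73 and -1.38. None of these overlapped.

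Mesenchyme-like cluster 1 had 11 bodies higher and 1 lower, against 3.1% and 0.476% of all genes, and a median of 0.04. Without E13.5 and without E15.5 the count of higher bodies was 1 each. Rbms3, an RNA-binding protein of connective tissue, had 0.449, 0.501 and 0.538 against 0.219, 0.296 and 0.52, with 4 of 20 overlapping, and a log2 fold change of 0.75 ± 0.15 (SE, edgeR adjusted p = 0.000549). Hdac9, a class II histone deacetylase, had 0.409, 0.35 and 0.309 against a median of 0.23 and was higher by 0.77. Wwox, an oxidoreductase at a fragile site, had 0.749, 0.601 and 0.671 against a median of 0.457 and was higher by 0.68. Rad51b was also higher here, at 0.848, 0.874 and 0.903, by 0.73. The lower body was that of Dpp6, at -0.70.

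At promoters 9 of 115 were higher and 2 lower in cluster 1, against 4.95% and 1.36% of all, and without E13.5 and E15.5 in turn 2 and 1 were higher. Slit3 had 12.8, 7.1 and 11.4 against at most 6.83 elsewhere, without overlap, and a log2 fold change of 1.68 ± 0.30 (SE, edgeR adjusted p = 1.26e-05). Gpc6, a glypican of growing bone, Lpp, a protein of focal adhesions, and Auts2 were higher by 0.90, 0.89 and 0.87. Nrg3 was lower, at -1.60. With autosomal totals in place of TMM the median over all promoters moved from 0.02 to 0.33, and 35 of the 115 were then higher beside 27.9% of all.

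Muscle-like cluster 10, with at least 10 nuclei in only 2 libraries, had 3 bodies higher and 10 lower, against 4.59% and 1.11% of all genes. Its median was -0.21. The count of lower bodies was 22 without E12.5, 1 without E13.5 and 0 without E15.5, where 16 had an unadjusted p under 0.05 in edgeR, and DESeq2 called 19 on all libraries. Atrnl1 had 0.683 and 0.573 against 0.224, 0.39 and 0.611, with 1 of 21 overlapping, and a log2 fold change of 0.73 ± 0.19 (SE, edgeR adjusted p = 0.00857). Rbms3 and Camta1, a calmodulin-binding transcription activator, were higher by 0.56 and 0.53. Erc2, a protein of the presynaptic active zone, had 0.173 and 0.124 against a median of 0.297, with a log2 fold change of -1.004. Fam155a, Fars2, a mitochondrial tRNA ligase, and Dscam followed with -0.93, -0.89 and -0.80.

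Of the muscle-like promoters 3 were higher and 1 lower, against 3.55% and 0.504% of all. Without E13.5 and without E15.5 none was higher, where 5 and 8 had an unadjusted p under 0.05 in edgeR, and DESeq2 called 5 on all libraries. Grip1, a scaffold of glutamate receptors and of the embryonic basement membrane, had 7.18 and 5.911 against at most 5.907, so that the groups were barely apart, with a log2 fold change of 1.34 ± 0.35 (SE, edgeR adjusted p = 0.00904). The Grip1 promoter tested lies 539092 bases from the RefSeq start of that gene. Sdk1, a sidekick adhesion protein, was higher by 0.77. Fgfr2, with the gene model named above, was higher by 0.77, and Negr1, a surface protein of neurons, was lower, at -1.44.

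Stages could be set side by side within a cluster but not tested, since each stage is 1 library. In cluster 0 the summed body level at E15.5 was 1.03 times that at E13.5 and in cluster 6 also 1.03 times, while in cluster 1 it was 0.991 times and in cluster 7 it was 0.922 times. In cluster 8 it was 1.11 times (exact 95% interval 1.11 to 1.12, counting error only). Single genes moved further. In cluster 0, Nav2, chosen after its values were seen, had 0.604 at E13.5 and 0.841 at E15.5, a ratio of 1.39 (1.33 to 1.46). Celf2, an RNA-binding protein chosen in the same way, had 0.519 and 0.381, a ratio of 0.734 (0.7 to 0.769). These intervals hold for the fragments counted and say nothing of the spread between embryos.

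The gene set rests on an annotation. Of the 213 very long genes with a RefSeq entry of the same symbol, 205 are over 500 kb there as well. In 34 of the 219 another protein-coding gene starts inside. The longest model, Gm20388, spans 4437 kb and holds the starts of 72 other genes, and its body value in the neuron-like comparison was -0.08 with an edgeR adjusted p of 0.68. Within the 205 genes, 142 bodies were higher in the neuron-like clusters and 84 were lower in cluster 5.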

How the data were processed

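Single-nucleus ATAC-seq was made from frozen sections of embryos that were littermates of those used for spatial profiling, with nuclei sorted after 7-AAD staining. Per the submitters' processing notes the build was mm10 and the tools were Cell Ranger ATAC 2.0.0, Signac 1.6.0 and Seurat 4.1.0. The authors deposited, for each library, unique fragments with their read counts, and a table of 1879 nuclei with clusters. They built the clusters after integrating these nuclei with spatial profiles over a peak set, so the accessibility tested here partly made them. The 20 other columns of the nucleus table were not used.

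A fragment of a listed nucleus was counted once in each window it overlapped. Of the protein-coding autosomal genes, 79 in the clustered protocadherin and Ugt families and 26 with repeated symbols were left out. The nuclei held 8375843, 65590935 and 38573714 autosomal fragments from E12.5 to E15.5, with medians of 29407, 61798 and 42458 per nucleus, so that E12.5 was the least precise. No doublet caller was run. Sums were fitted with edgeR 4.0.16 in R 4.3.3 (TMM factors, library as a block, quasi-likelihood test, Benjamini-Hochberg adjustment) for genes with a mean of at least 10 fragments, and with DESeq2 1.42.0 as an alternative. The fit was also run on simulated data, and the outcome is not given here. Intervals cover counting error only.

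Genes were named by a rule. For each comparison and measure it took up to 4 very long genes with the largest change in each direction, among those that passed the test and moved alike in every library. It added the 2 longest of each list, the 5 longest of all, the genes at the 500 kb bound and those called in opposite directions. The very long genes and the lists were chosen with earlier results of these data known. The gene deserts, the intronic windows and the settings without cluster 3 or with RefSeq lengths were added after seeing the data. Some very long genes are not reported here by name.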

Additional observations from a re-analysis of the deposited data

Results flagged for a closer look

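Some signal lay outside the comparisons. The 12 X-linked genes over 500 kb, left out by the rule on autosomes, held 130637 body fragments in the 23 sums, and the level in the neuron-like sums was 1.07, 1.28 and 1.20 times that of the others in the 3 libraries. The very long genes held 160776 body fragments in cluster 2, 13100 in cluster 4 and 14316 in cluster 11, which entered no comparison. Body levels were 0.340, 0.325 and 0.353 in cluster 2. They were 0.316, 0.335 and 0.384 in cluster 4, whose sums held 32944 to 94418 autosomal fragments. Cluster 11, where 8 of 8 erythroid markers were at 1.5-fold or more, had body levels of 0.119 to 0.138. The E12.5 sums of clusters 6, 7, 8 and 10 held 5, 6, 2 and 2 nuclei and stayed out of the main comparisons. Their body levels were 0.304, 0.307, 0.215 and 0.337. In that library cluster 0 had 0.358 and the other clusters compared had 0.262 to 0.334.

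At 5 promoters of named genes the ratio of neuron-like to other sums lay on opposite sides of 1 at E13.5 and E15.5. For Atrnl1 it was 0.924 and then 1.20, for Gm20388 it was 0.779 and then 1.12, and for Gpc5 it was 1.62 and then 0.775. For Tenm3 it was 0.423 and then 1.38, and for Vps13b it was 0.613 and then 1.598. These differences between stages were not tested, since each stage is 1 library.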

How the results depend on the processing

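Under the settings tried many counts changed in size, and the cause was not tested unless the setting itself leaves out sums or genes. Leaving out 1 library at a time gave 45 to 157 higher bodies in the neuron-like comparison (150 with all), 0 to 3 against cluster 9, 1 to 10 in cluster 1, 36 to 96 lower bodies in cluster 5 and 0 to 22 in cluster 10. At promoters it gave 26 to 75 higher in the neuron-like comparison, 1 to 9 lower against cluster 9, 1 to 9 higher in cluster 1, 20 to 92 lower in cluster 5 and 0 to 3 higher in cluster 10.

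With gene-desert fragments as the library size, the body counts in the same order were 37, 1, 6, 26 and 4. The medians over all genes moved as well in the neuron-like comparison and in cluster 5. The median of the very long genes stayed above that of all genes in the former and below it in the latter. The calls then leaned the other way in cluster 5, with 37 higher against 26 lower, in cluster 10, with 8 higher against 4 lower, and against cluster 9, with 1 higher against 4 lower. With sums of at least 5 nuclei, 0 bodies were higher against cluster 9, where 19 had an unadjusted p under 0.05 in edgeR. DESeq2 was run only on sums of at least 10 nuclei, where it called 9. The other body counts at 5 nuclei were 21 higher in cluster 1, 42 lower in cluster 5 and 1 lower in cluster 10. Promoter counts were then 5 lower against cluster 9, 25 higher in cluster 1, 19 lower in cluster 5 and 15 higher in cluster 10. With clusters of at least 10 nuclei in all 3 libraries, 55 bodies were higher in the neuron-like comparison, 6 in cluster 1, and 18 promoters in cluster 1. Autosomal totals gave 5 bodies and 35 promoters higher in cluster 1 and 1 promoter in cluster 10. DESeq2 gave 9 higher bodies against cluster 9, 19 lower bodies and 5 higher promoters in cluster 10. Without cluster 3, 2 bodies were higher against cluster 9. Without the filter, 99 neuron-like and 15 mesenchyme-like promoters were higher. Windows at all annotated starts gave 97, 132 and 9 in the neuron-like, erythroid-like and muscle-like comparisons.

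No sample labels carry replicate numbers that pair the sums, and the library served as the block. Without the replicate block, 143 bodies and 60 promoters were higher in the neuron-like comparison and 85 bodies and 82 promoters lower in cluster 5, and no count moved by over 1.5 times. The neuron-like ratio of body levels was 1.02 per gene-desert level, 1.29 without the top bins and 1.28 in the RefSeq set, and the ratio of evenness was 1.36 in 5 kb bins.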
